A study of Homo sapiens with 7 samples.

Results

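The expression of 54 genes of the WNT pathway was examined in HCT116, an established human colon adenocarcinoma cell line. The genes were taken by name as the WNT ligands, their frizzled and LRP receptors, secreted antagonists, the enzymes and sensor of receptor turnover, dishevelled, the destruction complex, beta-catenin and the TCF and LEF factors, and 52 of the 54 were among the 20423 genes with a value. FZD10 and SFRP2 were not analysed here. The values come from 1 library of polyA RNA. The series also holds sites where a piggyBac transposon was inserted, either by an SP1 fusion of the piggyBac transposase (SP1_PB, 2 libraries) or by the unfused enzyme (WT_PB, 3 libraries), and 1 list of SP1 ChIP-seq peaks, all from the same cell line. No treatment or genotype is given for the RNA library, and the labels give all samples the same growth protocol, which names the drug G418 for selecting cells with a transposon. Whether the cells of the RNA library were selected is not stated.

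WNT proteins are secreted lipid-modified ligands that bind a frizzled receptor together with an LRP co-receptor. Without a ligand, the destruction complex marks beta-catenin for degradation; with one, dishevelled and axin are drawn to the receptor, beta-catenin accumulates, and it enters the nucleus as the partner of TCF and LEF factors. In the intestine this pathway maintains the stem cells of the crypt, and most colon cancers carry a mutation that keeps it active. HCT116 cells are known to carry a CTNNB1 mutation that removes a serine whose phosphorylation starts the degradation of beta-catenin, and their APC gene is known to be intact.

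RPKM, the unit of all values here, is the number of reads per kilobase of transcript, scaled to the total of mapped reads. It accounts for length when levels of different genes are set side by side. Other differences between genes in how their reads are gained or placed were not examined. There was no replicate, so no value has an error, no difference between genes was tested, and each order of levels is that of this library. The depth was not given either. Of 15 genes that nearly all cells express, 1, YWHAZ, was also at 0, so a gene at 0 is described only as listed at 0. Of 11 colon epithelial markers 6 (54.5%) stood at 1 RPKM or more, near the 57.0% of all genes. Among them were KRT19 at 542.7, KRT8 at 378.0, EPCAM at 79.5 and CDX2 at 9.19 RPKM. Below 1 RPKM were KRT20 at 0.238, VIL1 at 0.0313, CEACAM5 at 0.0266 and CDX1 at 0.0242 RPKM, and LGALS4 was listed at 0. Of 7 leukocyte and endothelial markers none reached 1 RPKM, against 57.0% of all genes, and the highest, CD14, stood at 0.218 RPKM. Of 7 fibroblast markers only COL1A1 (14.3% of them), at 14.5 RPKM, reached 1 RPKM, against 57.0% of all genes. The next highest, PDGFRB, stood at 0.135 RPKM.

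The intracellular core of the pathway stood at higher levels than most of its ligands, receptors and antagonists. The 3 highest genes were DVL1, a dishevelled protein, at 71.0 RPKM, the antagonist DKK1 at 53.7 RPKM and CTNNB1, which encodes beta-catenin, at 53.0 RPKM. They ranked 769, 1064 and 1082 among the 20423 genes. Of the 52 genes 35 (67.3%) reached 1 RPKM, against a background of 57.0% of all genes, and the median was 2.02 RPKM against 1.91 RPKM over all genes. Without genes listed at 0 the order of the medians turned, with 2.94 RPKM against 3.55 RPKM. Of the 14 intracellular genes 13 reached 1 RPKM, with a median of 15.4 RPKM, and of the 38 secreted or membrane genes 22 did so, with a median of 1.20 RPKM. Listed at 0 were 8 of the 52 genes (15.4%), near the 16.6% of all genes. They were the ligands WNT1, WNT5A, WNT8A and WNT9B, the antagonists SFRP1 and WIF1, the receptor LGR5 and the transcription factor LEF1.

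**Figure D1:**
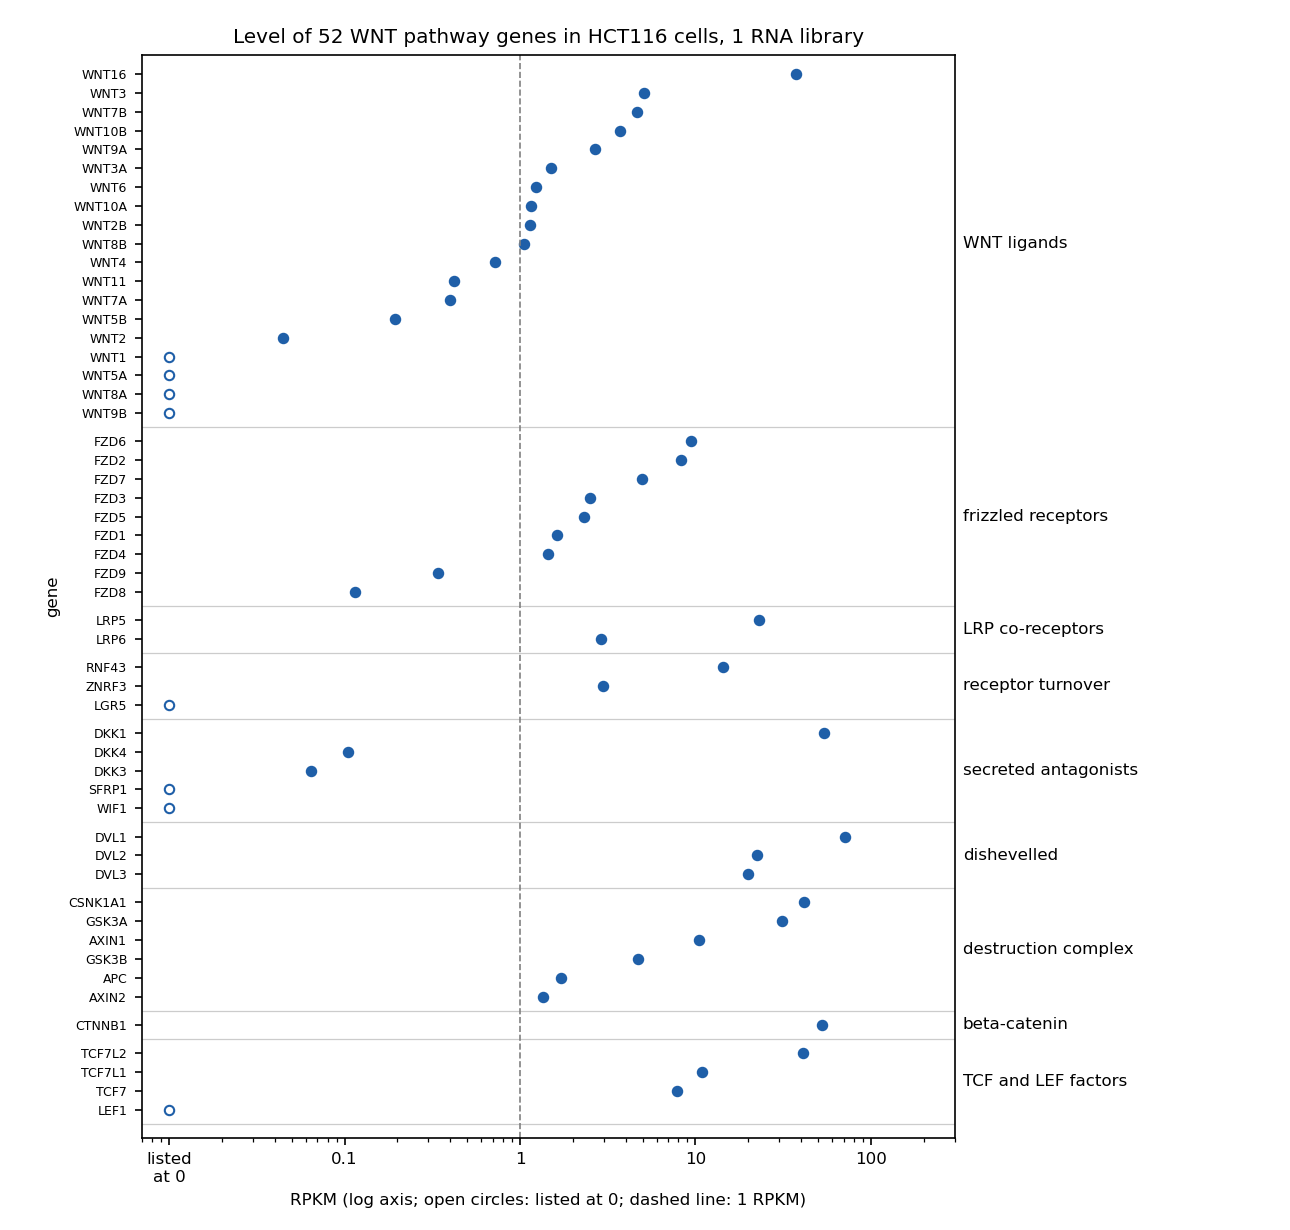
Level of each of the 52 WNT pathway genes in the HCT116 RNA library, in RPKM on a log axis, grouped by role; open circles at the left are genes listed at 0 and the dashed line marks 1 RPKM. DVL1, DKK1 and CTNNB1 lie farthest to the right at 71.0, 53.7 and 53.0 RPKM, and WNT16 at 37.3 RPKM stands apart from the other ligands.

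The difference from the background at 1 RPKM lay in a narrow range of levels. It rested on few genes and was not tested. Between 1 and 2 RPKM stood 9 of the 52 genes (17.3%) against 7.58% of all genes, and above 0 but under 1 RPKM stood 9 (17.3%) against 26.4%. From 2 RPKM upward the shares were near the background, with 50% of the 52 genes against 49.4% of all genes at 2 RPKM or more, 25% against 24.4% at 10 RPKM or more and 5.77% against 5.63% at 50 RPKM or more. At 5 RPKM or more the order was turned, with 32.7% against 36.0%. The genes between 1 and 2 RPKM were the ligands WNT2B, WNT3A, WNT6, WNT8B and WNT10A, the receptors FZD1 and FZD4, and APC and AXIN2 of the destruction complex.

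**Figure D2:**
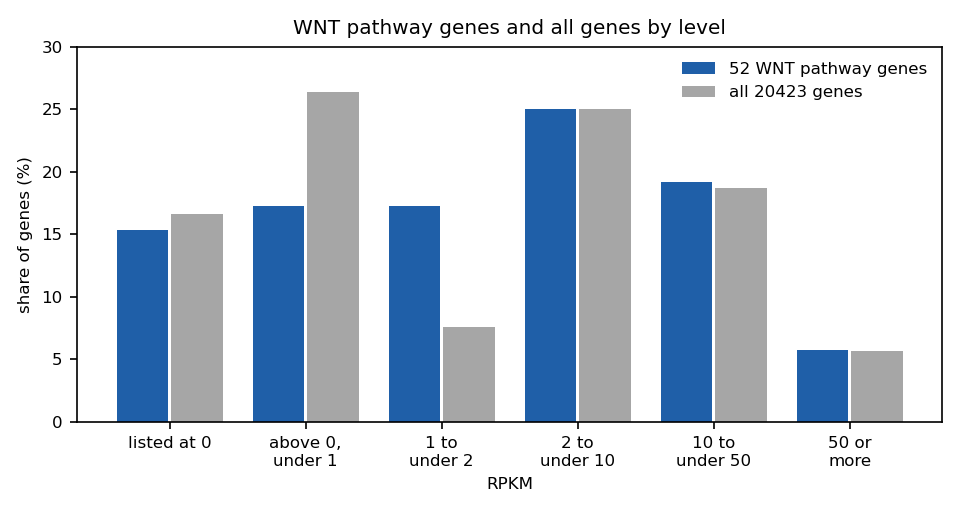
Share of genes, in percent, in 6 ranges of RPKM for the 52 WNT pathway genes (blue) and for all 20423 genes (grey) of the HCT116 RNA library. The bars differ most between 1 and 2 RPKM, at 17.3% against 7.58%, and above 0 but under 1 RPKM, at 17.3% against 26.4%.

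Sequences before the starts of 6 genes are given because SP1, the factor studied in the other libraries, is known to bind the GC box. They belong to the 3 highest genes, the highest ligand and 2 genes listed at 0, so the levels in between are not shown. These genes were chosen after the levels were seen. Each is the 250 bases before the annotated start in RefSeq on GRCh38.p14, written 5′ to 3′ on the strand of the gene, with GC boxes (GGGCGG or, on the opposite strand, CCGCCC) in capitals. The SP1 peaks and the insertions are on hg18, so they were not placed on these sequences.
DVL1 (chr1:1349419-1349668, minus strand): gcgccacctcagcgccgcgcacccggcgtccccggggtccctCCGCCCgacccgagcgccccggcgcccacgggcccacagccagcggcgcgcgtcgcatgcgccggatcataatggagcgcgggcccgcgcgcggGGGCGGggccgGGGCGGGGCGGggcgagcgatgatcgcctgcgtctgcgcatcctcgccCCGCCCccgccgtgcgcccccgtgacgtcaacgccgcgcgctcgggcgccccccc
DKK1 (chr10:52314031-52314280, plus strand): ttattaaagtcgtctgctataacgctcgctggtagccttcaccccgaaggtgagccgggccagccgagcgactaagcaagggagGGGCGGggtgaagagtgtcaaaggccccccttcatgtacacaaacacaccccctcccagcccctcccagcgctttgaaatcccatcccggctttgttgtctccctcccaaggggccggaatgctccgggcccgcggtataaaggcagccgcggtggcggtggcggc
CTNNB1 (chr3:41199255-41199504, plus strand): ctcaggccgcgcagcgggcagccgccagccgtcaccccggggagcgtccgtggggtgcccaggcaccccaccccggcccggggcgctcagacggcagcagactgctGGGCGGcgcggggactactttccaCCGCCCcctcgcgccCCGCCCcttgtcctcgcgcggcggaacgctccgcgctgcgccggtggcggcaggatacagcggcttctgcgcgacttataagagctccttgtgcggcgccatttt
WNT16 (chr7:121328750-121328999, plus strand): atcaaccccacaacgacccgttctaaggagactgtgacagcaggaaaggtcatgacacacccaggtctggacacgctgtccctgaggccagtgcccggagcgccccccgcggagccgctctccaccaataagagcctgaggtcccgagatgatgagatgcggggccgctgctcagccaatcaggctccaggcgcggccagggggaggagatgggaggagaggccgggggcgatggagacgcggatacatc
LEF1 (chr4:108166302-108166551, minus strand): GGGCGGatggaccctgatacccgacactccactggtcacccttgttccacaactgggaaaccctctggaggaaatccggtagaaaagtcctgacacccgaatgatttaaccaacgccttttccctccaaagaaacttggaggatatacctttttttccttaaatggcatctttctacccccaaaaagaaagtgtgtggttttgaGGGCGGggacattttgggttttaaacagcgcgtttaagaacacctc
WIF1 (chr12:65121306-65121555, minus strand): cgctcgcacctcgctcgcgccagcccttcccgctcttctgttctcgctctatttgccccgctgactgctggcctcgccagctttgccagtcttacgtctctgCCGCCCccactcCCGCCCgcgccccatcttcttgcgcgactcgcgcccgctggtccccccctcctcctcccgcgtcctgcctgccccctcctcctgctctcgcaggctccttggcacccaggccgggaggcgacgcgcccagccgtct

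DVL1 had 5 GC boxes in this window, of which a pair shares 1 base, CTNNB1 had 3 and DKK1 had 1. WNT16, at 37.3 RPKM, had none, while LEF1 and WIF1, both listed at 0, had 2 each. Of the 52 genes 38 had at least 1 window in the table, 47 windows in all, and 35 windows (74.5%) held a GC box, against 55.6% of the windows of all genes with a value here and 42.6% of all 35116 windows. Windows of genes at 1 RPKM or more held one in 23 of 33 cases (69.7%) and windows of genes under 1 RPKM in 12 of 14 (85.7%). Over all genes with a value and a window the order was the other way, with 65.7% of windows at 1 RPKM or more and 38.1% under 1 RPKM. Some genes have several windows, of which only some hold a box. With only the first window of each gene, the WNT pathway genes gave 80.8% at 1 RPKM or more and 91.7% under 1 RPKM. All genes gave 70.3% and 39.9%. The shares of the WNT pathway genes rest on few windows, and their difference was not tested. The windows of the WNT pathway genes were also richer in G and C, with a median of 68.8% against 62.4% in the windows of all genes with a value and 58.0% in all windows. The part of base composition in the share of GC boxes was not tested. The exact TCF motif CTTTGAT, or ATCAAAG on the opposite strand, occurred in none of the 47 windows. It occurred in 1.70% of the windows of all genes with a value and in 2.26% of all windows. With shares this low, 47 windows are too few to show a difference. Looser forms of the motif were not searched, and AXIN2, LGR5 and ZNRF3, known targets of beta-catenin and TCF, had no window. A gene may start elsewhere in these cells than at the annotated start, and a match of letters is not a bound site.

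**Figure D3:**
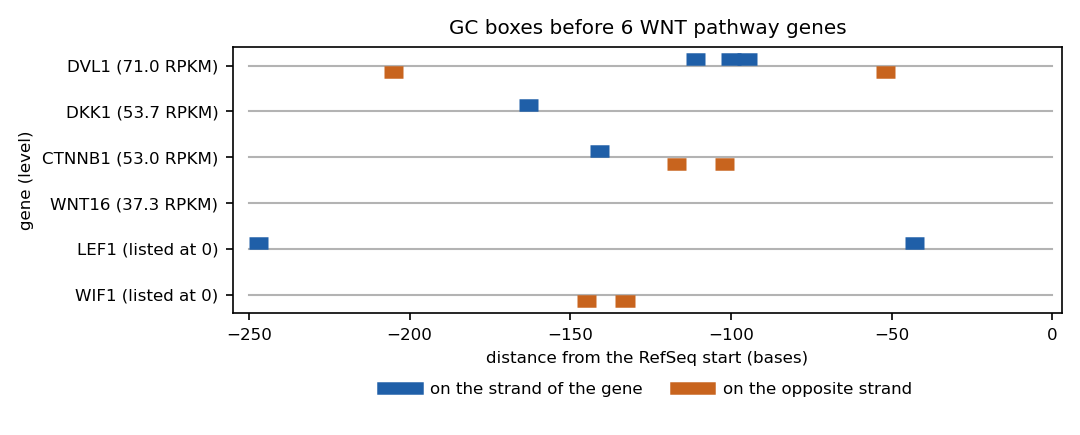
GC boxes in the 250 bases before the annotated start of 6 WNT pathway genes, by distance from the start in bases; blue boxes lie on the strand of the gene and orange boxes on the opposite strand, and each gene's level in the HCT116 RNA library stands beside its name. DVL1 has 5 boxes and WNT16 none, and LEF1 and WIF1, listed at 0, have 2 each.

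Among the ligands, WNT16 stood far above the others. It was at 37.3 RPKM, rank 1566 of all genes, and made up 60.8% of the summed RPKM of the 19 ligands. WNT16, known for its part in the growth of cortical bone, was followed by WNT3 at 5.12 RPKM, a ratio of 7.28. In the mouse intestine WNT3 is the ligand that Paneth cells supply to the stem cells. WNT7B at 4.62, WNT10B at 3.73 and WNT9A at 2.66 RPKM came next.

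The other 14 ligands stood under 2 RPKM. WNT3A, a ligand widely used to activate beta-catenin in culture, was at 1.50 RPKM, WNT6 at 1.24, WNT10A at 1.16, WNT2B at 1.13 and WNT8B at 1.05 RPKM. Those above 0 but under 1 RPKM were WNT4 at 0.716, WNT11 at 0.423, WNT7A at 0.400, WNT5B at 0.195 and WNT2 at 0.0448 RPKM. WNT11, WNT5B and WNT5A, which was listed at 0, are best known for signalling without beta-catenin. In all, 10 of the 19 ligands (52.6%) reached 1 RPKM, near the 57.0% of all genes, and their median was 1.05 RPKM against 1.91 RPKM over all genes. The 18 ligands other than WNT16 summed to 24.0 RPKM, so WNT16 was 1.55 times their sum.

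Several ligand genes lie next to each other in the RefSeq annotation. Some of these pairs include a gene listed at 0, and in the others both genes had values above 0. WNT3 was at 5.12 RPKM and its neighbour WNT9B was listed at 0. WNT10B was at 3.73 RPKM and its neighbour WNT1, the founding member of the family, was listed at 0. WNT6 and WNT10A, at 1.24 and 1.16 RPKM, overlap from start to end in that annotation, introns included. Whether their exons overlap was not examined, and their reads may not be fully separable. WNT9A and WNT3A, with 1 annotated protein-coding gene between them, were at 2.66 and 1.50 RPKM.

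No frizzled receptor stood apart from the others as WNT16 did among the ligands. FZD6 at 9.49 RPKM was the highest, with 30.6% of the summed RPKM of the 9 receptors listed, and FZD2 followed at 8.24 RPKM, a ratio of only 1.15. FZD7, which serves stem cells of the mouse intestine, was at 4.94 RPKM, FZD3 at 2.50 and FZD5 at 2.33 RPKM. FZD1 stood at 1.62 and FZD4, a receptor of the retinal ligand norrin, at 1.45 RPKM. FZD9 and FZD8 were at 0.339 and 0.114 RPKM. Of the 9 receptors 7 (77.8%) reached 1 RPKM, against 57.0% of all genes, and the median was 2.33 RPKM. None of the 9 ranked above 5169 among all genes, whereas the co-receptor LRP5 ranked 2472. LRP5 was at 23.1 RPKM and LRP6, the other co-receptor, at 2.91 RPKM, a ratio of 7.94.

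The genes that set how long frizzled receptors stay at the surface were also unequal. RNF43, a ubiquitin ligase that removes frizzled receptors, was at 14.4 RPKM and ZNRF3, which does the same, at 2.96 RPKM. LGR5, the R-spondin receptor known as a marker of crypt stem cells, was listed at 0. Its relatives LGR4 and LGR6 were at 0.499 and 0.535 RPKM. They form a list of 6 genes with the R-spondins, ligands that protect frizzled receptors from RNF43 and ZNRF3. None of the 6 reached 1 RPKM, against 57.0% of all genes, and RSPO3 was listed at 0.

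One gene carried nearly the whole level of the secreted antagonists. DKK1, which blocks the LRP co-receptors, stood at 53.7 RPKM and made up 99.7% of the summed RPKM of the 5 antagonists listed. Its relatives DKK4 and DKK3 were at 0.105 and 0.0640 RPKM. SFRP1 and WIF1, which bind WNT proteins outside the cell, were listed at 0. Among other antagonists DKK2 was listed at 0, and the 3 highest were NKD2 at 11.4 RPKM, an inhibitor of dishevelled, KREMEN1 at 7.60 RPKM, a receptor of DKK1, and KREMEN2 at 5.80 RPKM. Of that list 4 of 8 (50%) reached 1 RPKM, against 57.0% of all genes.

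**Figure D4:**
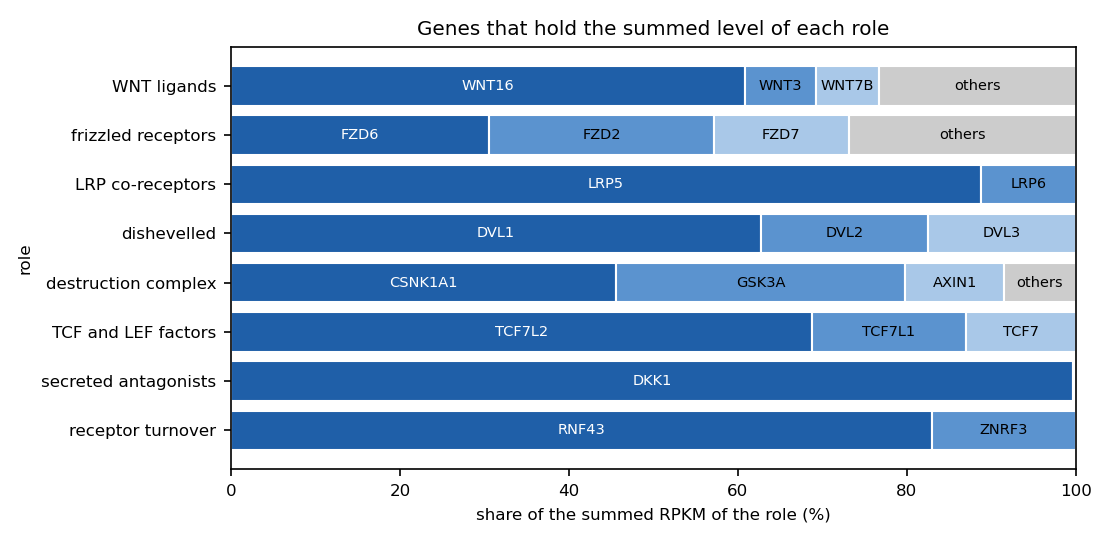
Share of the summed RPKM of each role, in percent, held by its highest gene (dark blue), the genes that follow it (lighter blues) and the rest (grey) in the HCT116 RNA library. DKK1 holds 99.7% of the antagonists and LRP5 holds 88.8% of the co-receptors, while FZD6 holds 30.6% of the frizzled receptors.

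All 3 dishevelled genes, whose proteins pass the signal from frizzled receptors to the destruction complex, reached 1 RPKM, against 57.0% of all genes. They also stood above 10 RPKM, a level that 24.4% of all genes reached. DVL1 was at 71.0 RPKM, DVL2 at 22.4 and DVL3 at 19.8 RPKM, so DVL1 held 62.7% of their sum and stood 3.18 times above DVL2.

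The destruction complex varied widely among its parts, and all 6 of its genes reached 1 RPKM, against 57.0% of all genes. The highest were 2 of its 3 kinases, CSNK1A1, the casein kinase that primes beta-catenin, at 41.3 RPKM and GSK3A at 31.0 RPKM. GSK3B, the kinase most studied in this complex, was at 4.68 RPKM, below the scaffold AXIN1, so that GSK3A stood 6.62 times higher. Of the scaffolds, AXIN1 was at 10.5 RPKM, APC at 1.71 RPKM and AXIN2 at 1.36 RPKM. CTNNB1, the substrate, at 53.0 RPKM stood 31.0 times above APC and 5.02 times above AXIN1 on the RPKM scale. These are levels of RNA and say nothing of the amounts of protein.

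TCF7L2, the main TCF factor of the intestine, was the highest of the 4 TCF and LEF factors at 41.3 RPKM, rank 1393 of all genes. It held 68.8% of their sum. TCF7L1, best known as a repressor, was at 10.9 RPKM and TCF7 at 7.84 RPKM, and LEF1 was listed at 0. TCF7L2 stood 3.78 times above TCF7L1 and 5.27 times above TCF7.

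Several of these genes are themselves known targets of beta-catenin and TCF, and in this cell line their levels were far apart. DKK1 was at 53.7, RNF43 at 14.4, TCF7 at 7.84, ZNRF3 at 2.96 and AXIN2, a widely used reporter of the pathway, at 1.36 RPKM, and LGR5 and LEF1 were listed at 0. RNF43 stood 10.6 times above AXIN2. Among 13 other known targets 9 (69.2%) reached 1 RPKM, against 57.0% of all genes, with the growth regulators MYC at 175.9 and CCND1 at 109.0 RPKM and the adhesion receptor CD44 at 66.7 RPKM as the highest, and PROX1 was listed at 0. Their median was 8.89 RPKM. Without another condition or cell line, none of these levels can be tied to the activity of the pathway.

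In the lists that follow, most genes around the core reached 1 RPKM, a level that 57.0% of all genes reached. The R-spondins with their receptors and the other antagonists, described above, reached it less often than all genes. All 3 genes of WNT secretion and its reversal reached 1 RPKM: WLS, the carrier of WNT proteins, was at 12.7 RPKM, PORCN, which attaches their lipid, at 9.32 RPKM and NOTUM, which removes it, at 7.93 RPKM. Of 4 other WNT receptors 3 did, with PTK7 at 32.8, RYK at 14.5 and ROR2, a receptor of WNT5A, at 6.79 RPKM. Of 10 further genes of the destruction complex and the degradation of beta-catenin 9 did, led by the casein kinases CSNK1D and CSNK1E at 67.8 and 67.7 RPKM and SKP1, a part of the ubiquitin ligase, at 35.6 RPKM. Of 15 nuclear cofactors 12 did, with the corepressors CTBP1 at 67.5, CTBP2 at 40.9 and TLE2 at 23.4 RPKM as the highest, while BCL9L, a coactivator that binds beta-catenin, was listed at 0. Over the 59 of 61 such genes with a value, known targets, antagonists and R-spondins included, 40 (67.8%) reached 1 RPKM, against 57.0% of all genes, and their median was 6.79 RPKM. APCDD1 and ASCL2 were not analysed here.

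**Figure D5:**
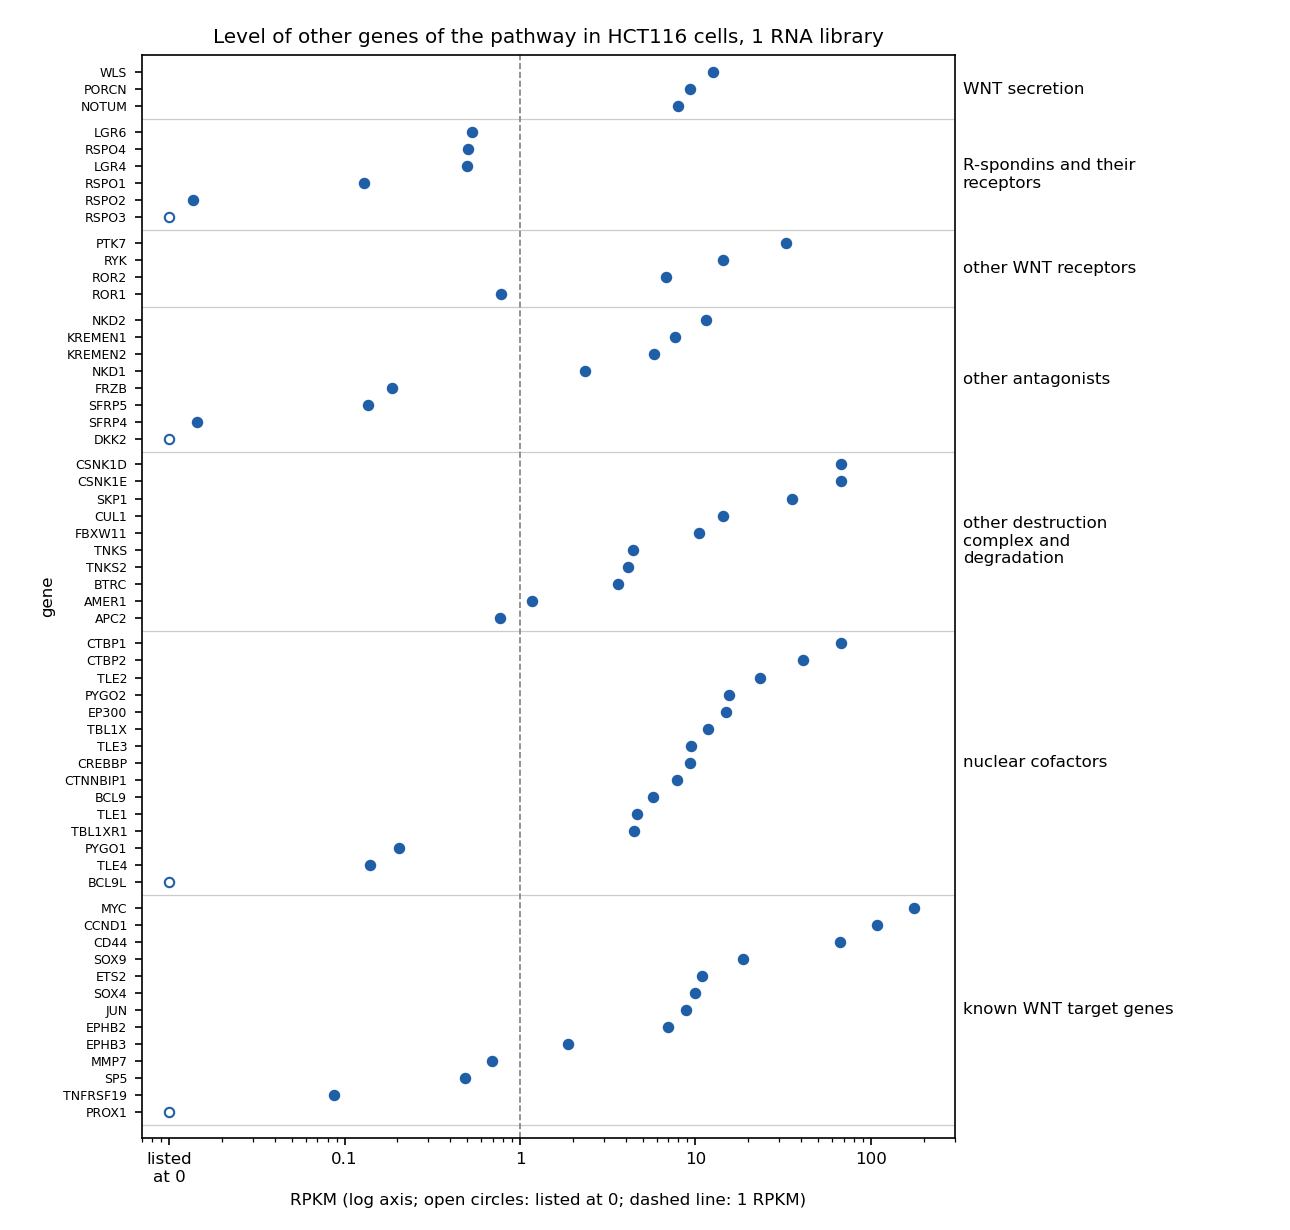
Level of 59 other genes of the WNT pathway in the HCT116 RNA library, in RPKM on a log axis, grouped by role; open circles are genes listed at 0 and the dashed line marks 1 RPKM. MYC, at 175.9 RPKM, lies farthest to the right, and all 6 R-spondins and their receptors lie left of 1 RPKM.

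Some levels could include reads of another gene. In the RefSeq annotation 8 of the 54 genes overlap a protein-coding gene that also had a value here. Overlap was judged from the start and end of each gene, introns included. Whether exons overlap was not examined, and whether reads were assigned by strand is not given. TCF7, at 7.84 RPKM, overlaps VDAC1, which stood at 62.1 RPKM, and this was the only such partner far above the WNT pathway gene. DVL1, at 71.0 RPKM, overlaps TAS1R3, at 0.721 RPKM. WNT2B and FZD4, at 1.13 and 1.45 RPKM, overlap ST7L and PRSS23, at 1.53 and 1.30 RPKM. WNT3 and WNT9B, at 5.12 RPKM and listed at 0, overlap LRRC37A2, at 0.815 RPKM. The part of shared reads in these levels was not tested.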

How the data were processed

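Expression was measured in 1 polyA RNA library of HCT116 cells. The authors deposited 1 RPKM value per RefSeq gene, using TopHat alignments on hg18 and Cufflinks, per the deposited readme (Cufflinks 1.1.0, per the submitters' processing notes). No source used here gives the filters, the strand or the depth, so counting error is unknown and no interval or test was computed. Each gene name occurred once. Genes were matched by symbol, and AMER1 by its older symbol FAM123B. Genes were counted at 1 RPKM or more, ranked among all 20423 genes, and summarised by role with medians and shares of summed RPKM. Roles and further lists were written by hand, and the members and lists were chosen with earlier results of these data known. All members could be named, with the 3 highest genes and those at 0 of each further list. LGR4, LGR6, KRT20, VIL1, CEACAM5, CDX1, CDX2, KRT8, EPCAM and PDGFRB were named after their values were seen. Motifs were searched on both strands of RefSeq promoter windows. In 1585 overlapping pairs on opposite strands, all 1585 were reverse complements. Insertions and peaks were not used, as they were not placed relative to genes on hg18. Computations used Python 3.11.15 and pandas 2.3.3, were checked on constructed inputs with known answers, and were repeated at other levels, on another scale and without genes listed at 0.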

Additional observations from a re-analysis of the deposited data

How the results depend on the processing

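No paired analysis was possible because the expression data are 1 library and no result comes from a test. The count of WNT pathway genes at 1 RPKM or more was 35; it was 36 at 0.5 RPKM, 26 at 2 RPKM and 38 with values rescaled to a fixed sum, as in TPM, but 17 at 5 RPKM. Taking the sum or the first line of a gene changed nothing, since each gene was listed once. The share of the WNT pathway genes was 79.5% against 68.4% of all genes without genes listed at 0, 69.2% against 62.5% at 0.5 RPKM, 50% against 49.4% at 2 RPKM, 32.7% against 36.0% at 5 RPKM and 73.1% against 65.2% after rescaling. By role, the ligands counted 5 at 2 RPKM and 2 at 5 RPKM, and at 5 RPKM the frizzled receptors counted 2, the co-receptors 1, the destruction complex 3 and receptor turnover 1. The other counts by role at these levels were within 1.5 times those at 1 RPKM. Without genes listed at 0 the median was 2.94 RPKM for the WNT pathway genes against 3.55 RPKM for all genes, which turns their order, and 1.16 RPKM for ligands, 10.9 RPKM for TCF and LEF factors, 0.105 RPKM for antagonists and 8.70 RPKM for receptor turnover. Without the highest gene of a role, the next held 21.3% of the sum among ligands, 38.3% among frizzled receptors, 53.0% among dishevelled genes, 62.9% in the destruction complex, 58.2% among TCF and LEF factors and 62.1% among antagonists; the co-receptors and receptor turnover were left with 1 gene above 0 and gave no value. Adding 1 or 0.1 RPKM lowered the log2 ratio of DKK1 to DKK4, 9.0 with nothing added, to 5.63 and 8.04. The shares of windows with a GC box, also computed with the bases after the start included and with 1 window per gene, alternatives chosen after seeing the data, kept their order. The unknown depth limits the values under 1 RPKM most, and the single library leaves all differences between genes without an error.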
